A study of Mus musculus with 6 samples.

Results

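The class 3 semaphorin genes are the 7 mouse genes Sema3a, Sema3b, Sema3c, Sema3d, Sema3e, Sema3f and Sema3g, which encode secreted guidance proteins. They were chosen by name and are 7 of the 21776 protein-coding genes of the RefSeq table used here, whose build, GRCm38.p6, is that of mm10. Peaks of chromatin immunoprecipitation with sequencing (ChIP-seq) were assigned to a gene in 3 ways. A boundary peak lay within 1 kb of either annotated end, a body peak lay elsewhere inside the gene, and a nearest peak lay between genes with that gene as the closest, at no more than 100 kb. This gave 28 of 31873 and 23 of 26927 peaks in CHD7 libraries 1 and 2, and 11 of 24283 and 9 of 22686 peaks in H3K27ac libraries 1 and 2. In input libraries 1 and 2 it gave 0 of 451 and 0 of 512 peaks, and input peaks were assigned to 0.905% and 1.09% of all protein-coding genes.

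The chromatin came from cardiac neural crest cells of E10.5 mouse embryos, which were sorted for green fluorescence from pharyngeal arches 3 to 6. The embryos came from Wnt1-Cre2 males and mTmG females, so the sorted cells are those in which a Wnt1-driven recombinase had switched on the reporter, or their descendants, and all 6 libraries share this background. There were 3 groups of 2 libraries, precipitated for CHD7, an enzyme that slides nucleosomes with energy from ATP, or for H3K27ac, an acetylated histone of active promoters and enhancers, or sequenced as input. No mutant or treated embryos were compared, the labels leave unsaid whether libraries 1 and 2 are from different litters, and depth is unknown because the lists hold no read counts. Among genes that mark the neural crest, CHD7 lay at a boundary of 3 of 10 (Sox9, Snai2 and Ets1). H3K27ac lay at a boundary of 2 of 10 (Sox9 and Twist1). Neither lay at a boundary of Sox10, Foxd3, Tfap2a, Tfap2b, Prrx1 or Hand2 in both libraries. CHD7 library 2 alone had a boundary peak at Sox10. Away from boundaries, Foxd3, Tfap2a and Tfap2b had CHD7 regions nearest to them, and Tfap2a had H3K27ac in its body. Of 5 markers each, CHD7 and H3K27ac lay at 2 and 0 for endothelium, 0 and 0 for cardiomyocytes, 1 and 2 for blood cells, and 1 and 1 for epithelium, counting regions found in both libraries. Over all protein-coding genes the same boundary counts gave 44.2% for CHD7 and 47.6% for H3K27ac. At boundaries alone, the crest markers thus stood below the background for each. Counting boundary, body and nearest regions together, CHD7 lay at 7 of 10 crest markers, against 55.6% of all genes. H3K27ac lay at 4 of 10 by that rule, against 56.6%. Nearest regions alone lay at 6 of 10 for CHD7, against 11.4%, and at 1 of 10 for H3K27ac, against 8.03%. These differences over 10 markers were not tested. Peaks do not measure expression, so these counts do not set the purity of the sort.

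Class 3 semaphorins are released by cells and bind neuropilins, which pair with plexins to carry the signal into the receiving cell, where it reshapes the cytoskeleton. SEMA3C draws cardiac neural crest cells into the outflow tract, and mice without it fail to divide that vessel into aorta and pulmonary trunk. SEMA3A repels growing axons and steers migrating crest cells, SEMA3E binds plexin D1 without a neuropilin in the patterning of vessels, and SEMA3F acts through neuropilin 2. CHD7, the gene mutated in CHARGE syndrome, has been linked to guidance genes of the neural crest.

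RefSeq promoter sequences matched 5 of the 7 genes. Sema3b and Sema3f had no entry. The sequences of Sema3c, Sema3d and Sema3e are shown because the genes differ in what lies at their starts, with CHD7 and H3K27ac at that of Sema3c, H3K27ac shortly inside that of Sema3d and no peak near that of Sema3e. Each is the 250 bases before the annotated start on the plus strand, 5′ to 3′, in build GRCm38.p6, and capitals mark each CG dinucleotide.
Sema3c, chr5:17574566-17574815: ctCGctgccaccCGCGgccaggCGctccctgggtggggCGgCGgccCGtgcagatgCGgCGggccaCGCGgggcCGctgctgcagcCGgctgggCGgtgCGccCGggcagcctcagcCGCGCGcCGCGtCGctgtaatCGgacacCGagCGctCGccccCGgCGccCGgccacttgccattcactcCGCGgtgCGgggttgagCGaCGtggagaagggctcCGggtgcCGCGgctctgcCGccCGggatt
Sema3d, chr5:12382916-12383165: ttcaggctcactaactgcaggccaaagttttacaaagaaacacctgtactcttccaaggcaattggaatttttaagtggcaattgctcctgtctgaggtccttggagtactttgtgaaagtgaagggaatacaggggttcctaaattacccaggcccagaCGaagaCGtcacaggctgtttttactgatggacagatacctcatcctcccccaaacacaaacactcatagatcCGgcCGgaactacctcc
Sema3e, chr5:14025026-14025275: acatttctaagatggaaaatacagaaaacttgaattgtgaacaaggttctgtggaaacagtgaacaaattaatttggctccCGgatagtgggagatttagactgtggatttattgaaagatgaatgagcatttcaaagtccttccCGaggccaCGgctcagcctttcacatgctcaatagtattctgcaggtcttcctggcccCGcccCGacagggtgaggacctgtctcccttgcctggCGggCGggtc

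The Sema3c sequence holds 39 CG dinucleotides at 78.4% G and C, more CG than 98.0% of 21263 promoter sequences of protein-coding genes. Sema3d holds 4 at 46.8%, Sema3e 7, Sema3g 8 at 60.4% and Sema3a 2 at 40.8%. The Sema3a sequence precedes an inner start, 272.0 kb inside the annotated gene, so its lower end is not described by it. The median was 18 among the 5675 promoters overlapping a CHD7 region and 6 among the 15588 without one. For H3K27ac it was likewise 18 among the 7210 promoters with a region and 5 among the 14053 without one. The Sema3c sequence is thus the CG-rich one among the 5. Alone of the 5, its 250 bases overlapped a CHD7 region, as 26.7% of the promoters did, and an H3K27ac region, as 33.9% did. The CHD7 peaks covered 76 of these bases in library 1 and 0 in library 2.

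Motifs of crest factors were searched in these 250 bases on both strands. Sema3c held the TFAP2 motif GCCNNNGGC, as GCCCCCGGC at 96 to 88 bases before the start, and the E-box CATCTG, read on the minus strand at 200 to 195 bases. These motifs occur in 16.3% and 12.4% of all promoters. Sema3g held the E-box CAGCTG, found in 12.1%, and the MEIS motif TGACAG, found in 15.4%. The SOX motif AACAAT, found in 8.22%, was in none of the 5, and Sema3a, Sema3d and Sema3e held none of the motifs. No motif overlapped another.

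CHD7 recurred at 4 of the 7 genes. A region was the merged extent of overlapping peaks, kept where both libraries of the antibody had a peak in it. Of these regions, 16 for CHD7 and 6 for H3K27ac were assigned to the semaphorins, all of them to Sema3a, Sema3c, Sema3d and Sema3f. Over all protein-coding genes, 55.6% had a CHD7 region and 56.6% an H3K27ac region by the same rule, so 4 of 7 is close to the background for either. Sema3a had 8 CHD7 regions, Sema3d and Sema3f 3 each and Sema3c 2. Sema3b, Sema3e and Sema3g had no region of either kind. Library by library, 7 and 5 of the 7 genes had a CHD7 peak, against 64.4% and 61.1% of all genes, and 5 and 4 had an H3K27ac peak, against 61.9% and 59.9%.

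**Figure D1:**
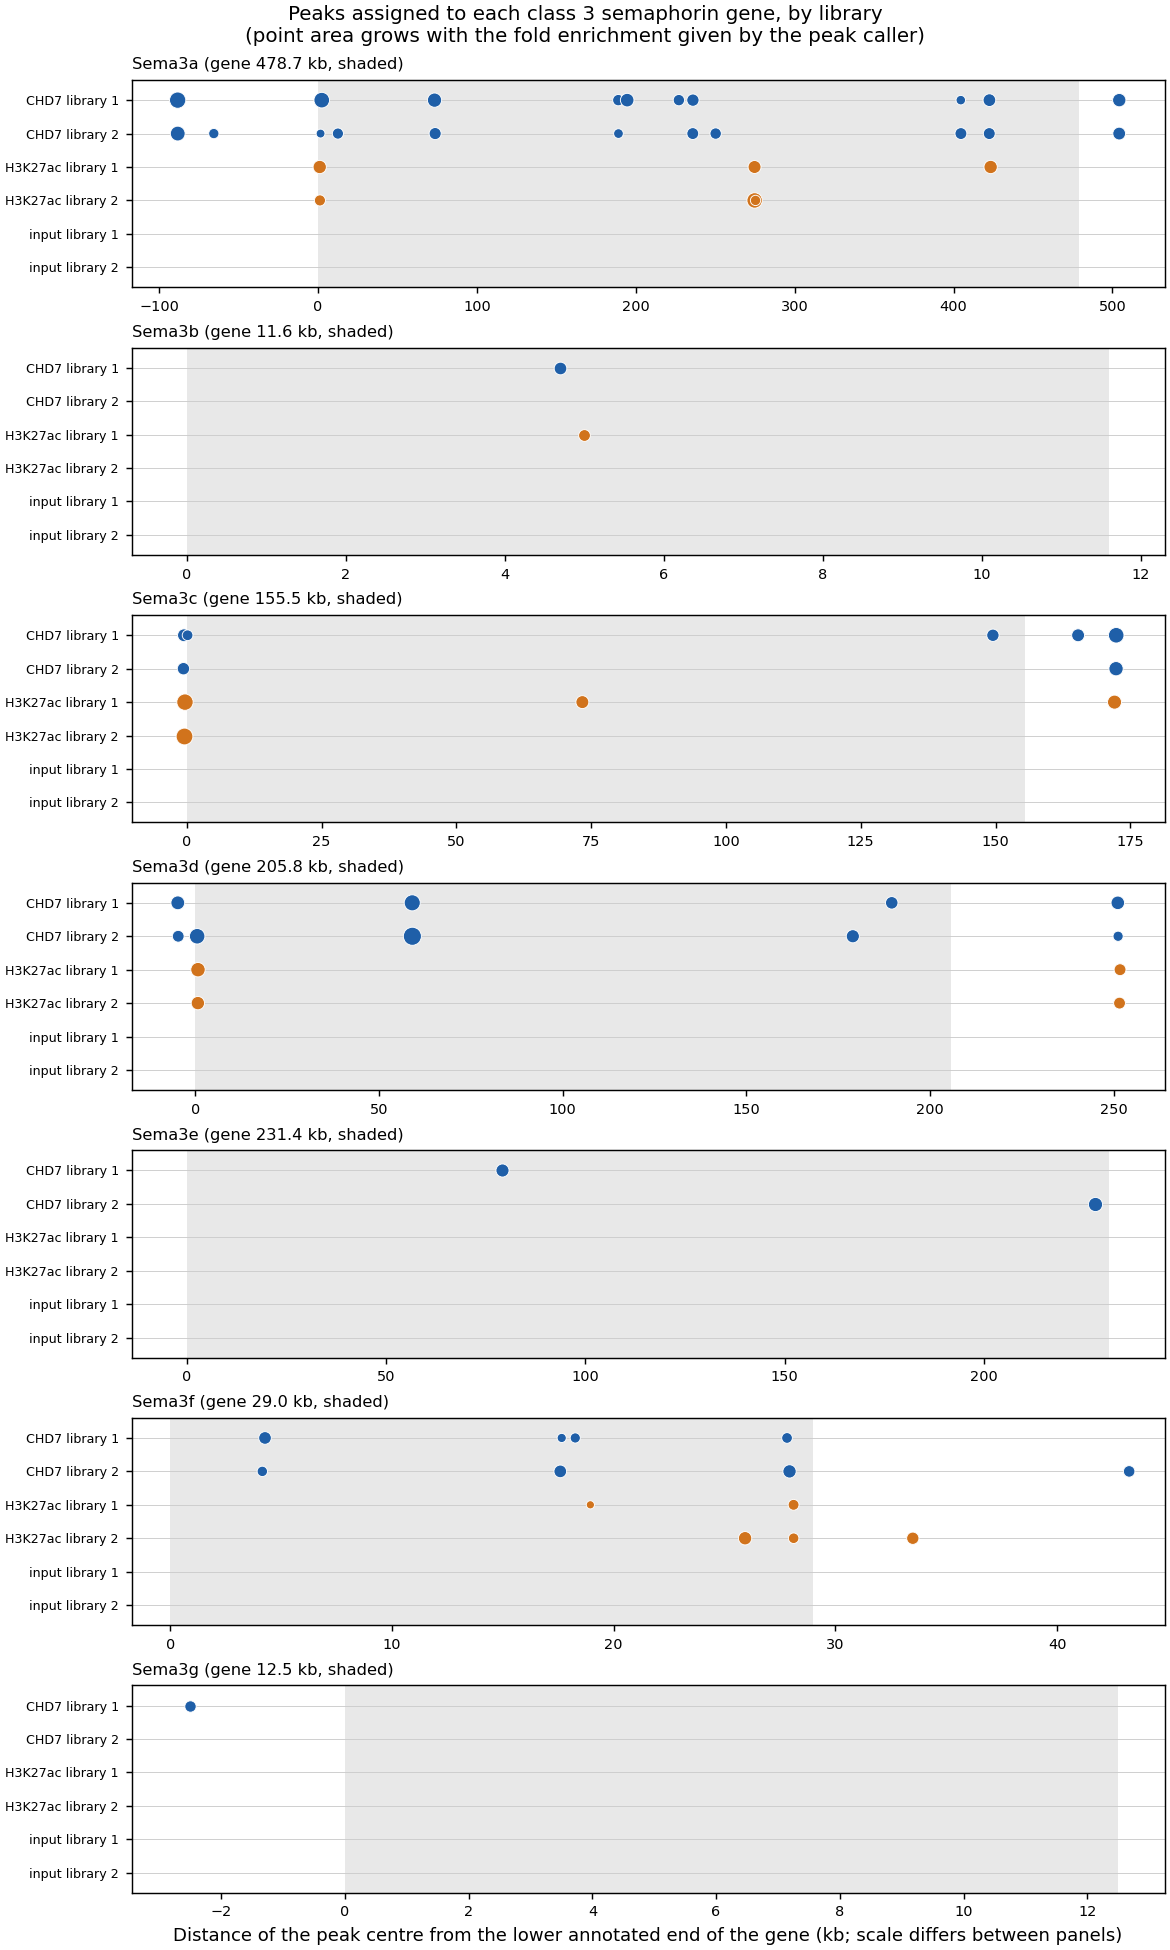
Position of each assigned peak along the 7 genes, as the distance in kb of its centre from the lower annotated end. Lanes are the 6 libraries, shading is the gene, and point area grows with fold. Sema3a carries 12 and 11 CHD7 peaks, Sema3b, Sema3e and Sema3g carry at most 1 per library, and both input lanes are empty.

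At boundaries, CHD7 regions lay at Sema3c and Sema3f, 2 of 7 genes against 44.2% of all protein-coding genes. H3K27ac regions lay at Sema3a, Sema3c, Sema3d and Sema3f, 4 of 7 against 47.6%, and both lay at a boundary of Sema3c and Sema3f, 2 of 7 against 39.3%. Library by library, 3 and 3 of the 7 had a CHD7 peak at a boundary, against 51.1% and 49.1% of all genes, and 4 and 3 had an H3K27ac peak there, against 51.3% and 49.8%. With peaks of either library, CHD7 reached boundaries of 4 of the 7 genes, against 55.1% of all genes, by adding Sema3a from library 1 and Sema3d from library 2. The same 4 genes then carried H3K27ac, against 53.3% of all genes, and so both marks, against 49.2%. Counts over 7 genes so close to these shares are no result about the family.

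Sema3c, the attractant of cardiac neural crest, had the clearest overlap of the marks at its start, on chromosome 5 at 17574816. In CHD7 library 1 a peak lay at 17573876 to 17574641 with a fold enrichment of 3.20, and a further peak at 17574854 to 17575172 with a fold of 2.61. In CHD7 library 2 a peak lay at 17573922 to 17574514 with a fold of 3.08. Fold enrichment is the authors' value at the peak summit, given by their peak caller, and serves here to describe and rank peaks within a list. The H3K27ac peak spanned 17573921 to 17575073 with a fold of 4.49 in library 1 and 17573969 to 17574618 with a fold of 4.66 in library 2.

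In library 1 the single H3K27ac peak thus covered the gap between both CHD7 peaks, the start included, while in library 2 both marks ended before the start. CHD7 covered 76 of the 250 promoter bases in library 1 and 0 in library 2, where its peak ended 302 bp before the start. H3K27ac covered 250 and 53 of them. The CHD7 region averaged a fold of 3.14 ± 0.087 (SD, n = 2), above 31.9% of the 19947 CHD7 regions, and the H3K27ac region 4.57 ± 0.12 (SD, n = 2), above 63.7% of the 17756 H3K27ac regions. This was the strongest H3K27ac region of the family and the only one with a −log10 q above 10 in each library, 10.46 and 11.5.

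A second CHD7 region of Sema3c lay 16.6 kb past its upper end, at 17746830 to 17747553, with folds of 4.16 and 3.70. It ranked above 71.8% of CHD7 regions, higher than the region at the start. H3K27ac library 1 had an overlapping peak there with a fold of 3.61, and H3K27ac library 2 had none. Other peaks of Sema3c were found in 1 library alone, at 17724122 to 17724511 and 17739914 to 17740299 for CHD7 and at 17647972 to 17648303 for H3K27ac.

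Sema3d, which in mice patterns the pulmonary veins, held the strongest CHD7 site of the family inside its body. This region, 58.6 kb above the lower end at 12441747 to 12442677 on chromosome 5, had folds of 4.37 and 5.21, and a −log10 q of 10.3 and 15.5 in CHD7 libraries 1 and 2. Its mean fold of 4.79 ± 0.60 (SD, n = 2) ranked 1864 of 19947, above 90.7% of CHD7 regions. No H3K27ac peak of either library overlapped it.

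At the start of Sema3d the marks differed between libraries. H3K27ac lay inside the gene in both, at 12383569 to 12384241 with a fold of 3.75 and at 12383631 to 12384038 with a fold of 3.39, beginning 403 and 465 bp after the start. CHD7 library 2 had a peak there, at 12383501 to 12383927 with a fold of 4.15, above 82.7% of the peaks of its list. CHD7 library 1 had none, its nearest peak lying 4.56 kb before the start, so no CHD7 region was counted at this boundary.

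Between genes, Sema3d had CHD7 regions 4.3 kb below its lower end, with folds of 3.53 and 2.90, and 45.0 kb beyond its upper end, with folds of 3.45 and 2.47. The region beyond the upper end, at 12633945 to 12634597, was the sole CHD7 region of the family between genes that an H3K27ac region met, with folds of 2.93 and 2.91 at 12634538 to 12635080. The overlap was narrow: CHD7 peaks of both libraries met the H3K27ac peak of library 2, and neither met that of library 1. CHD7 peaks deeper in the body differed in position between the libraries, at 12572536 to 12572895 in library 1 and 12561943 to 12562307 in library 2.

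Sema3a, the axon repellent, carried the most CHD7 of the family, spread along a gene of 478.7 kb. Its body held 6 CHD7 regions, or 1.25 per 100 kb, against a median of 0.258 per 100 kb over the 2427 protein-coding genes of at least 100 kb, of which 85.9% had a lower density. Sema3d had 0.486 per 100 kb, and the long genes Sema3c and Sema3e had 0, while 53.8% of all long genes had at least 1 body region. Mean folds in the Sema3a body were modest, from 2.49 ± 0.46 (SD, n = 2) near the lower end to 3.34 ± 0.50 (SD, n = 2) at 13197684 to 13198707. That at 13197684 was above 43.7% of all CHD7 regions, and the others were above 4.07% to 27.6%. Their −log10 q values in the 2 libraries ran from 1.543 to 5.7, that at 13197684 included.

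The strongest CHD7 region of Sema3a lay outside it, 88.0 kb below the lower end at 13036151 to 13036834, with folds of 4.45 and 3.88. It ranked above 78.9% of CHD7 regions and had no H3K27ac peak. A region 25.3 kb above the upper end, at 13628768 to 13629555, had folds of 3.38 and 3.20, also without H3K27ac. Of the 8 CHD7 regions of Sema3a, 1 met H3K27ac. The CHD7 peak of library 1 in it overlapped H3K27ac peaks of both libraries, and the CHD7 peak of library 2 overlapped neither.

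That region lay close to the lower end of Sema3a, where the distance limit decided its class. The CHD7 region at 13125838 to 13126490, with folds of 2.81 and 2.16, began 1016 bp inside the gene and counted as body. The H3K27ac region at 13125618 to 13126122, with folds of 3.37 and 2.71, began 796 bp inside and counted as boundary. CHD7 library 1 alone also had peaks on either side, at 13125109 to 13125551 with a fold of 2.14, and at 13126911 to 13127311 with a fold of 4.19 and a −log10 q of 11.96.

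RefSeq's promoter entry for Sema3a marks another start, at 13396784, which is 272.0 kb inside the annotated gene. H3K27ac lay 2.54 and 2.55 kb after this start in libraries 1 and 2, at 13399326 to 13399891 over both, with folds of 3.26 and 4.11. The nearest CHD7 peaks lay 35.83 and 21.58 kb before it. Sema3a thus had H3K27ac after both annotated starts. At the first, a CHD7 region overlapped the mark, through the CHD7 peak of library 1 alone.

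Sema3f, a ligand of neuropilin 2, was marked at its upper end, on chromosome 9. The CHD7 region at 107709028 to 107709884 had folds of 2.60 and 3.37, and the H3K27ac region within it, at 107709377 to 107709845, had folds of 2.65 and 2.56. Peaks of both antibodies overlapped there in every pairing of libraries. The folds were low for their lists, above 23.2% of CHD7 regions and 3.93% of H3K27ac regions. Without strand in the gene table, this end of Sema3f was not assigned as start or end.

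In the body of Sema3f, CHD7 regions lay at 107685486 to 107685957, with folds of 3.16 and 2.52, and at 107698943 to 107699326, with folds of 2.23 and 3.17, both without H3K27ac. H3K27ac peaks in the body and beyond it differed between the libraries. Library 1 had a fold of 2.02 at 107700339 to 107700634, and library 2 had folds of 3.39 at 107707245 to 107707692 and 3.06 at 107714658 to 107715231.

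Sema3b, which lies near Sema3f on chromosome 9, had 1 CHD7 peak and 1 H3K27ac peak, both in library 1. They lay in the body at 107602213 to 107602590, with a fold of 3.16, and at 107602429 to 107602810, with a fold of 2.90, and overlapped each other. Neither recurred in library 2. Beyond its upper end, peaks at 2.28 to 3.76 kb in the 4 ChIP libraries belonged by distance to Gnai2, the next gene, which codes for a G protein subunit.

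Sema3e, the ligand of plexin D1, had 1 CHD7 peak in each library at different positions, 14104086 to 14104394 with a fold of 3.30 in library 1 and 14252894 to 14253528 with a fold of 3.67 in library 2. H3K27ac was called nowhere near it, the nearest peak lying 258.31 kb from an end in library 1 and 624.94 kb in library 2. Sema3g, known from blood vessels, had 1 CHD7 peak 2296 bp below its lower end in library 1, with a fold of 2.79, and nothing in CHD7 library 2 or in H3K27ac.

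**Figure D2:**
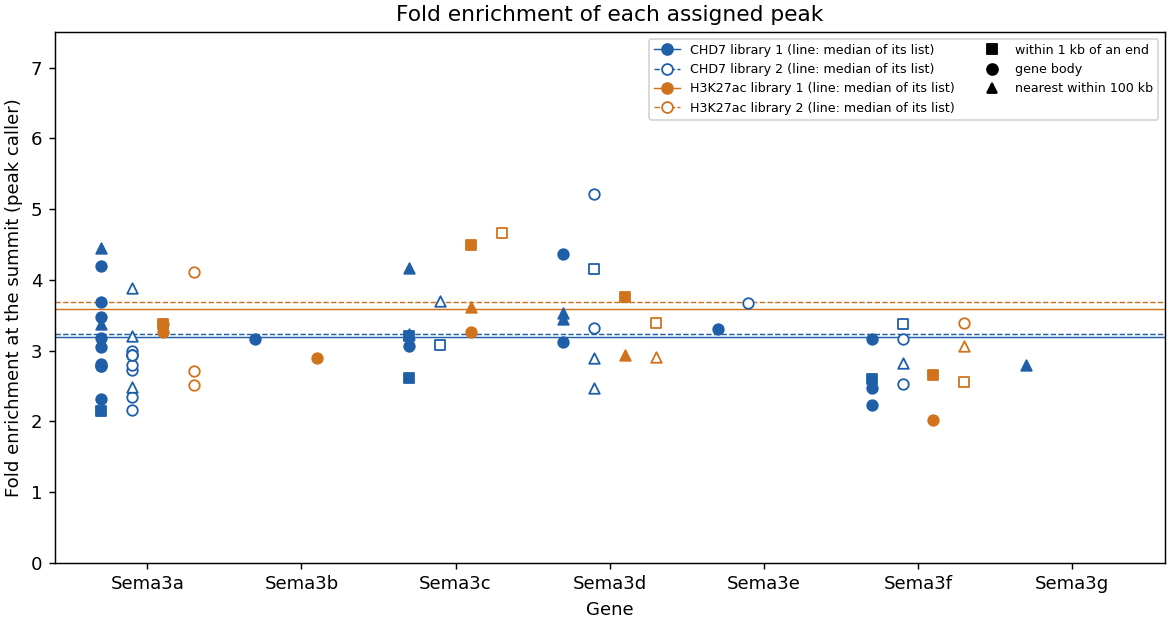
Fold enrichment given by the peak caller for each assigned peak, per gene and ChIP library. Symbols give the class of the peak, filled for library 1 and open for library 2, and lines mark each list's median. The body site of Sema3d stands highest, at 4.37 and 5.21.

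Over the family, fold enrichment stood near or below the middle of each list. The median fold was 3.16 and 2.94 for the semaphorin peaks of CHD7 libraries 1 and 2, against 3.19 and 3.24 for the whole lists. For H3K27ac it was 3.26 and 3.06, against 3.59 and 3.68. For regions, the median of the mean fold was 3.03 for the 16 CHD7 regions, against 3.46 for all, and 3.30 for the 6 H3K27ac regions, against 4.06.

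Of the semaphorin peaks, 57.1% of CHD7 library 1 and 69.6% of library 2 overlapped a peak of the other CHD7 library, against 65.1% and 76.6% of all peaks. For H3K27ac the shares were 54.5% and 66.7%, against 75.8% and 81.3%. The semaphorin peaks are few and those of a gene are not independent, so these shares were not tested. No semaphorin peak overlapped an input peak, and the input peak nearest to an end of a member lay 0.64 Mb away, beyond Sema3e.

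Most of the CHD7 regions of the semaphorins lacked H3K27ac. An H3K27ac region overlapped 4 of the 16, against 60.4% of all CHD7 regions. By class, both boundary regions were covered, against 80.4% of boundary CHD7 regions, and 2 of the 14 distal ones, against 39.5% of distal CHD7 regions. These were 1 of 9 in gene bodies, against 44.3%, and 1 of 5 between genes, against 34.9%. The overlap in a gene body, that of Sema3a, came from the CHD7 peak of library 1 alone. Of these 14, 8 were assigned to Sema3a, so they are not independent, and the difference was not tested. In the other direction, CHD7 regions overlapped 4 of the 6 H3K27ac regions, against 66.8% of all H3K27ac regions, among them 3 of 4 at boundaries, against 72.0%, and 1 of 2 elsewhere, against 57.7%. The H3K27ac regions without a CHD7 region were those after the start of Sema3d and after the inner start of Sema3a.

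Genes that act with the ligands were counted in the same way. CHD7 lay at 7 of 13 semaphorins of other classes, 8 of 14 receptors and coreceptors and 13 of 18 intracellular effectors, beside 2 of the 7 class 3 genes and the 44.2% of all genes. H3K27ac lay at 8 of 13, 7 of 14 and 12 of 18, beside 4 of 7 and 47.6%. Both marks lay at a boundary of 6 of 13, 5 of 14 and 11 of 18, beside 2 of 7 and 39.3%. These lists were not tested against each other.

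**Figure D3:**
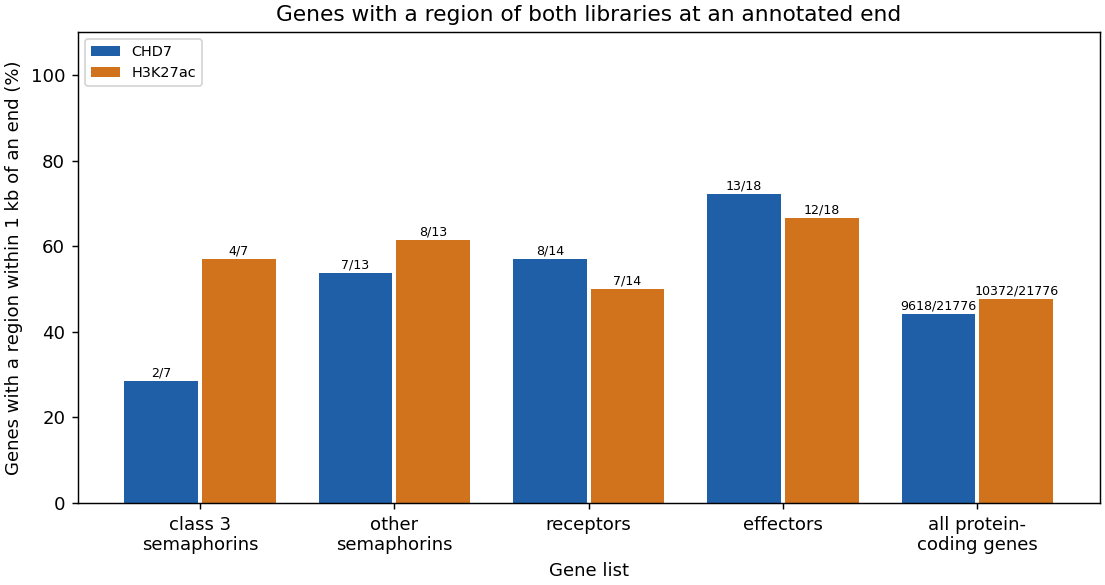
Percentage of genes with a CHD7 or H3K27ac region of both libraries within 1 kb of an annotated end, with counts above the bars. The class 3 semaphorins stand at 28.6% for CHD7 and 57.1% for H3K27ac, and all protein-coding genes at 44.2% and 47.6%.

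Among the receptors, Plxna1, a plexin that signals with neuropilins, had the highest CHD7 fold at a boundary, 5.05 ± 1.5 (SD, n = 2). Plxnd1, the receptor of SEMA3E, followed with 3.33 ± 0.40 and Plxnc1 with 3.20 ± 0.12 (SD, n = 2 each). Chl1, L1cam and Plxnb1 were among the receptor and coreceptor genes with no boundary peak in any ChIP library. The pair Sema3e and Plxnd1 thus had CHD7 at the receptor gene and no CHD7 region at the ligand gene. At boundaries, by regions of both libraries, the neuropilin gene Nrp1 had CHD7 without H3K27ac and Nrp2 had H3K27ac without CHD7, with mean folds of 2.85 ± 0.94 and 3.55 ± 1.0 (SD, n = 2 each). H3K27ac library 1, without library 2, had a boundary peak at Nrp1. Away from the boundaries, Nrp1 also had an H3K27ac region and Nrp2 also had CHD7 regions.

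Of the other semaphorins, Sema4b at 3.58 ± 0.42, Sema4d at 3.52 ± 0.45 and Sema5b at 3.31 ± 0.47 led by mean CHD7 fold, and Sema4c and Sema4f had no boundary peak in any ChIP library. Of the effectors, Dpysl4, a gene of the collapsin response mediator family, had 4.45 ± 0.062, the kinase gene Fyn 3.95 ± 0.78 and the small GTPase gene Rras 3.80 ± 0.62 (SD, n = 2 each), and Mical3 and Rnd1 had no boundary peak. The Sema3c mean of 3.14 and the Sema3f mean of 2.98 fall below each of these leaders, which were picked as the highest of their lists. The lowest boundary means of the lists were 3.05 for Sema7a, 2.55 for the receptor gene Plxna4 and 2.25 for the effector gene Dpysl5. Sema3c stood above each of these, and Sema3f above those of Plxna4 and Dpysl5 but below that of Sema7a.

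Likeness of pattern was measured over 12 calls, boundary, body and nearest in each of the 4 ChIP libraries, against 45 genes of these lists. Sema3f was most like Fyn, with 11 of 12 calls equal. Plxnb2 had 10 equal with Sema3f and was closer by fold, with a summed absolute log2 difference of 5.36 against 6.01 for Fyn. Sema3a had 10 calls equal with Dpysl2, Sema6a and Chl1, of which Dpysl2 was closest by fold, and Sema3c had 10 equal with Plxnc1 and Sema5a. Sema3d was most like Nrp2 and Dpysl3, with 9. Sema3b, Sema3e and Sema3g had 10, 10 and 11 calls equal with each of L1cam, Plxnb3 and Sema4f, which had no call at all and tie by fold too. Plxnb1, Sema4c and Mical3 also reached 10 for Sema3b and Sema3e, so these members, with 1 or 2 calls of their own, have no single closest gene.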

How the data were processed

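ChIP-seq peak lists of 2 CHD7, 2 H3K27ac and 2 input libraries were analysed. Per the submitters' processing notes, bcl2fastq 2.18.0.12, Bowtie2 2.3.3.1, Picard and MACS2 2.1.2 were used with the mm10 build. The authors called peaks per library. A control for the peak calls, such as the input, is not named in the labels. The authors' lists give the fold enrichment at the summit, a ratio made by the peak caller, the −log10 p-value and −log10 q-value of each peak, and an integer score derived from q, which was not used. The deposited lists hold no read counts, so depth is unknown and no interval from reads can be given. Fold describes and ranks peaks within a list and was not tested between antibodies.

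Python 3.11.15 with pandas 2.3.3 was used. Rows with the same interval and different summits were joined, keeping the highest fold and q, and only chromosomes 1 to 19, X and Y were used, which left out 27 to 106 peaks of a list. Overlap meant at least 1 bp. Protein-coding genes placed below position 3000000, or 500000 on Y, were left out, leaving 21776 of 21887. The gene table gives no strand or exons, so introns and exons were not assigned. Motifs planned for peak summits were searched in RefSeq promoters, since no genome was used. Overlap and assignment were tested on simulated data. A mean ± SD of fold is over the 2 libraries of an antibody. No test was run: with 2 libraries a group, the members are described by counts beside the share of all genes.

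All 7 members are named. From the other lists, the 3 genes of highest mean CHD7 fold at a boundary and up to 3 without a boundary peak are named. Nrp1 and Nrp2, Gnai2, the individual marker genes and the genes of lowest mean CHD7 fold were chosen after their values were seen. So was the comparison of body density in genes of at least 100 kb and of G and C content. The members and lists were chosen with earlier results of these data known. The alternatives tried were regions of either library, each library alone, stricter peak limits, input peaks left out, and other distances and overlaps.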

Additional observations from a re-analysis of the deposited data

How the results depend on the processing

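The results tried under other settings are counts of the 7 genes and of the regions assigned to them. With peaks of either library, CHD7 boundary genes numbered 4, CHD7 regions 35, those overlapping H3K27ac 8, and H3K27ac regions 14, against 2, 16, 4 and 6 with both libraries. With a −log10 q of at least 10, 0 genes had CHD7 and 1 (Sema3c) had H3K27ac at a boundary, and 1 CHD7 and 1 H3K27ac region were left, with 0 overlaps. With the 10000 peaks of highest −log10 q, the values were 0 and 1 genes, 2 and 1 regions, and 0 overlaps. Within 500 bp, CHD7 lay at 1 gene (Sema3c) and H3K27ac at 2 (Sema3c and Sema3d). Within 2.5 kb the counts were 3 for CHD7 (Sema3a, Sema3c and Sema3f) and 5 for H3K27ac (Sema3a, Sema3b, Sema3c, Sema3d and Sema3f). The H3K27ac added at Sema3b lay beyond its upper end, at 2.28 and 2.38 kb in libraries 1 and 2. Each library alone gave 3 CHD7 boundary genes, 3 to 4 H3K27ac boundary genes, 23 to 28 CHD7 regions, 4 to 6 of them overlapping H3K27ac, and 9 to 11 H3K27ac regions. Leaving out input peaks changed none of the 5 counts and could change none, because no semaphorin peak overlapped an input peak. Nearest genes within 50 or 200 kb gave 15 and 18 CHD7 regions, and a stricter overlap, of 50% of the shorter region, left 3. The regions that passed the q limit in both libraries were the body site of Sema3d for CHD7 and the start of Sema3c for H3K27ac, and unknown depth limits what the absence of a peak shows. No paired analysis was possible because the results are counts of regions and come from no test.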

Other observations

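Below Sema3a, 2 more CHD7 regions lay past the 100 kb limit in the stretch of 535.9 kb without protein-coding genes that separates it from Sema3d. The region at 13006699 to 13007587 on chromosome 5, 117.2 kb below Sema3a, had folds of 3.60 and 4.13 in CHD7 libraries 1 and 2. The region at 12971040 to 12971791, 153.0 kb below it, had folds of 3.41 and 2.66. Neither overlapped an H3K27ac region, as was the case for the CHD7 region 88.0 kb below Sema3a.

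The gene after Sema3e on chromosome 5, Pclo, begins 258.2 kb above it, and Gm6650 ends 210.5 kb below it. Sema3e is thus flanked by long stretches without protein-coding genes, as Sema3a and Sema3d are, yet no CHD7 or H3K27ac region of both libraries was assigned to it.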
